A study of Mus musculus with 3 samples.

Results

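The 9 Hedgehog pathway genes described here are the receptor Ptch1, the ligand-binding proteins Hhip, Boc and Gas1, the signal transducers Smo and Sufu, and the transcription factors Gli1, Gli2 and Gli3. They were chosen by name from the pathway, as the probe sets whose platform annotation gives exactly 1 gene symbol equal to a member's. All 9 had exactly 1 such probe set, out of 22087 named genes on the array: 17293607 for Ptch1, 17510772 for Hhip, 17330577 for Boc, 17293313 for Gas1, 17456721 for Smo, 17360022 for Sufu, 17245874 for Gli1, 17226170 for Gli2 and 17285414 for Gli3. The samples were 3 preparations of mouse tumour stroma of the genotype Dicer1 +/-, numbered 1 to 3 in their titles, and each was read on 1 Affymetrix array. The cells were live cells sorted as negative for the endothelial surface protein PECAM1 and for the red fluorescent protein tdTomato, which marked tumour cells. The series title calls the tumours ASD+/-. The labels used here do not expand these letters, and they name no Cre driver, no tumour-driving allele, no strain, no age and no tumour type. Tumours labelled ASD+/+ in the title were not analysed here, so no comparison of genotypes was made. Whether the samples are separate animals is not stated in the labels, so each SD covers the spread between these 3 preparations alone. Sex-linked transcripts place sample 1 in an animal of the other sex than samples 2 and 3, while samples 2 and 3 may differ for technical reasons alone.

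Hedgehog signalling begins when a secreted ligand binds Ptch1, which otherwise keeps the membrane protein Smo inactive. Active Smo gathers in the primary cilium and frees the Gli factors from Sufu and from processing into repressors. Gli2 is known mainly as an activator and Gli3 mainly as a repressor, while Gli1, Ptch1 and Hhip are textbook target genes of the pathway, and Ptch1 and Hhip in turn restrain it by holding ligand. Boc and Gas1 are co-receptors that present ligand to Ptch1. In many tissues the ligand comes from epithelium and the response lies in the mesenchyme. An activated Smo or the loss of a Ptch1 copy can drive rhabdomyosarcoma in mice. A probe set reads the transcripts of a gene, not the activity of its protein, and it does not separate alleles. Whether these animals carried an altered Smo or Ptch1 allele is not stated in the labels, so how far the values of Smo and of the target genes reflect ligand or such an allele was not tested.

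The values are log2 intensities, so a difference of 1 is a 2-fold difference in signal. The background level was taken from 1438 probe sets of olfactory, vomeronasal and taste receptor genes, as their 95th percentile on an array, and a gene above it on every array was called detected. This level stood at 5.16, 5.11 and 5.20 in samples 1 to 3. All 9 members passed on all arrays, beside 60.5% of the 20658 named genes outside this reference. The members closest to the level were Hhip and Gli1 in sample 1, by 1.12 and 1.18. With the 99th percentile as the level, at 6.37, 6.58 and 6.49, 7 of 9 members passed, and Hhip and Gli1 failed in 1 sample each. Probes differ in brightness, and the level of a gene is therefore compared between samples only, not with another gene.

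The samples differed in their cell markers. All 12 fibroblast markers were detected, with Pdgfra at 8.55, 9.24 and 7.82 in samples 1 to 3 and Dcn at 11.64, 12.02 and 11.20. All 8 macrophage markers, among them Cd68 and Adgre1, and all 8 neutrophil markers, among them S100a8 and S100a9, were detected too, as were all 10 pericyte and all 7 measured lymphocyte markers, the T cell receptor genes Cd3e and Cd3d among them. Endothelial cells should be left out by the gate, and 5 of 8 endothelial markers were detected (Pecam1, Cdh5, Kdr, Tek and Esam). Pecam1 was at 8.02, 7.20 and 8.25. All 7 myogenic markers were detected. Myod1 was at 6.42, 6.30 and 6.42, above the 99th percentile level in sample 1 only. Myog was at 7.37, 6.95 and 7.37, above that level in all samples, as were Myf5, Pax7 and Mymk. Chrna1 and Cdh15 were above it in sample 3 only. Whether the tumour cells removed by the gate were myogenic is not stated in the labels. Schwann cell markers were detected in 4 of 5 measured, with Sox10 and Mbp at means of 5.98 and 7.17. Epithelial markers were detected in 3 of 5, while their first genes Epcam and Krt14 passed on 1 array each. The endothelial and epithelial shares were near the 60.5% of all named genes, so the counts do not show that these cells were present. Kdr passed by only 0.096 in sample 2, and Kdr, Tek, Esam and Sox10 were below the 99th percentile level on every array. Pecam1 was above that level in all samples and Cdh5 in samples 2 and 3. The epithelial marker Cdh1, at 7.16, 6.47 and 8.13, was above it in samples 1 and 3, while Krt8 and Krt18 were below it on every array. Sample 1 stood apart in sex-linked transcripts: Xist had a log2 intensity of 9.78 there, against 3.43 and 3.49, and the Y-linked Kdm5d 3.67, against 7.03 and 7.50.

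The target genes Ptch1, Hhip and Gli1 each had their lowest value in sample 1 and their highest in sample 3. Ptch1 was at 7.75, 8.55 and 8.93 in samples 1 to 3, with a mean of 8.41 ± 0.60 (SD, n = 3). Sample 1 was apart on the low side, and the range of 1.18 on the log2 scale, a 2.27-fold difference, fell to 0.38 without it. Hhip, a membrane protein that sequesters ligand, was at 6.28, 6.96 and 7.26, with a mean of 6.83 ± 0.50 (SD, n = 3). Its range of 0.98, or 1.97-fold, was 0.30 without sample 1. Gli1, the Gli factor that rises with pathway activity, was at 6.34, 6.66 and 6.81, with a mean of 6.60 ± 0.24 (SD, n = 3). It followed the same order over a smaller range of 0.47, or 1.39-fold, which was 0.15 without sample 1. All 3 targets thus shared an order that 16.4% of the 13636 genes above the background level on at least 1 array also had. This order was noticed in the values before it was counted. Samples 2 and 3 stood closer to each other than to sample 1 for each target, and the difference between samples 2 and 3 was at most 0.38 for the 3 targets.

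**Figure D1:**
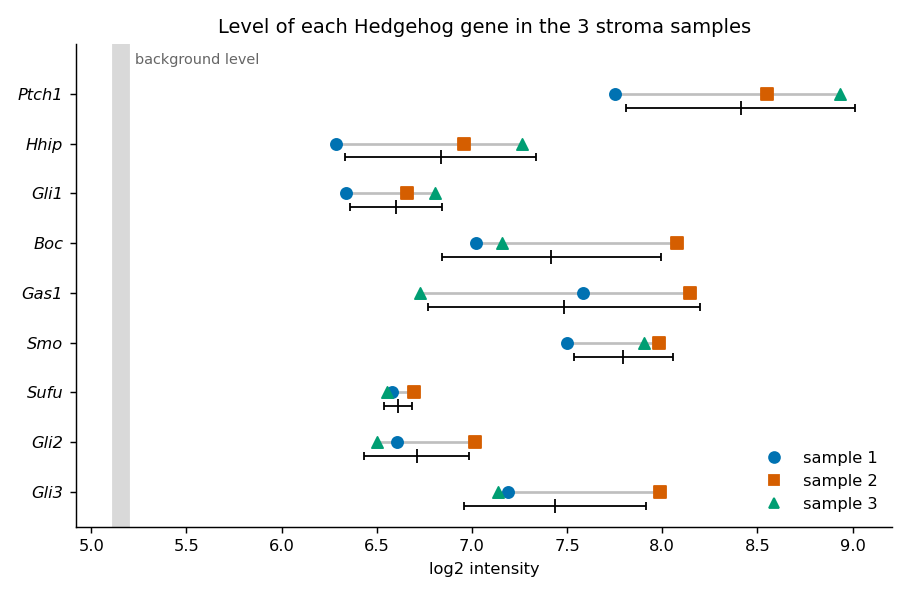
Log2 intensity (x axis) of each of the 9 Hedgehog genes (y axis) in samples 1, 2 and 3 (circle, square and triangle), with the mean and SD of the 3 samples as a bar under each row and the background level as a grey band from 5.11 to 5.20. Ptch1, Hhip and Gli1 had their lowest point in sample 1 and their highest in sample 3, and the other 6 genes peaked in sample 2.

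The promoters of Ptch1 and Hhip are shown because these genes are the targets with the wider ranges and were ordered alike across the samples. RefSeq promoter entries (GRCm38.p6) matched 7 of 9 members, all but Gli1 and Boc. Each sequence below is the 250 bases before the start site, on the gene's strand. Ptch1 lies on the minus strand at chr13:63565736-63565985 and Hhip on the minus strand at chr8:80058009-80058258. Capitals mark the GC box GGGCGG or its reverse complement CCGCCC, a motif of many promoters.
Ptch1: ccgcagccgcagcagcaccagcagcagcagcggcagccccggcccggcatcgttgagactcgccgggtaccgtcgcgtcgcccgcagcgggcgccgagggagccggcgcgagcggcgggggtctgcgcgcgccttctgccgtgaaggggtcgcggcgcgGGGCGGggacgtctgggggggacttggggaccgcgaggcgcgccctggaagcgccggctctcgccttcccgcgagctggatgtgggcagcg
Hhip: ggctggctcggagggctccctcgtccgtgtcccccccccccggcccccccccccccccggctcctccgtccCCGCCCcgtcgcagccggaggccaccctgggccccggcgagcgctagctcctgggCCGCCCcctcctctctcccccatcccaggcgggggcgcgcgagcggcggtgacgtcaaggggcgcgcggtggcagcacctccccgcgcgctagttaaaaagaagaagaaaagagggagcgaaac
The window held 1 GC box in Ptch1 and 2 in Hhip, and its GC content was 78.4% and 76.0%, against a median of 52.4% over 32851 promoters. The GC box occurred in 6 of the 7 members' windows, all but that of Smo, and in 32.7% of all promoters. All 7 windows had a GC content above that median, from 54.0% in Sufu to 78.4% in Ptch1. The share among promoters of like GC content was not computed. The Gli binding motif GACCACCCA, searched on both strands with no mismatch as TGGGTGGTC on the other, was in none of the 7 windows, so that no overlap with a GC box arose, and in 0.225% of all promoters. A window without it shows only that these letters are not in these 250 bases.

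The co-receptors Boc and Gas1 did not share the order of the targets. Both were highest in sample 2. Boc, an immunoglobulin-family co-receptor, was at 7.02, 8.08 and 7.16 in samples 1 to 3, with a mean of 7.42 ± 0.58 (SD, n = 3). Sample 2 stood alone on the high side, and the range of 1.06, or 2.08-fold, was 0.14 without it. Gas1, a lipid-anchored co-receptor first known from growth-arrested fibroblasts, was at 7.58, 8.15 and 6.73, with a mean of 7.49 ± 0.71 (SD, n = 3). Here sample 3 was the low one. The range of 1.42, or 2.68-fold, was the widest among the 9 members and was 0.57 without sample 3, 0.85 without sample 2 and 1.42 without sample 1. From sample 2 to sample 3 Gas1 differed by -1.42 and Boc by -0.92, while Ptch1 differed by 0.38 in the other direction.

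The Gas1 window is shown for comparison with the targets, since the gene was lowest in the sample in which they were highest. It lies on the minus strand at chr13:60177536-60177785 and held 1 GC box, in capitals, with a GC content of 58.8%.
Gas1: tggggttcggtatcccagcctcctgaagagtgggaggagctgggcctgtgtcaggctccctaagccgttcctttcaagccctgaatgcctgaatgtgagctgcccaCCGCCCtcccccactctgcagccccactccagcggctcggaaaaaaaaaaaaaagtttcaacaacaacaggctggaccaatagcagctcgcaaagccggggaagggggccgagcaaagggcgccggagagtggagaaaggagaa

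The transducers Smo and Sufu and the factors Gli2 and Gli3 had ranges below 1, but only Sufu had a narrower range than the target Gli1. Smo, the membrane protein that Ptch1 restrains, was at 7.50, 7.98 and 7.90 in samples 1 to 3, with a mean of 7.80 ± 0.26 (SD, n = 3). Its low value was in sample 1, as for the targets, and the range of 0.48 was 0.082 without that sample. Sufu, the cytoplasmic inhibitor that binds the Gli factors, was at 6.58, 6.70 and 6.56, with a mean of 6.61 ± 0.074 (SD, n = 3). Its range of 0.14, or 1.10-fold, was the smallest of the 9 and below the median range of 0.31 over the 13636 genes. Gli2 was at 6.61, 7.02 and 6.50, with a mean of 6.71 ± 0.27 (SD, n = 3), and Gli3 at 7.19, 7.99 and 7.14, with a mean of 7.44 ± 0.48 (SD, n = 3). Both Gli factors were high in sample 2 alone. Their ranges of 0.52 and 0.85 were 0.10 and 0.050 with sample 2 left out, so samples 1 and 3 were nearly level for both. For Gli1 sample 3 was above sample 1 by 0.47, while for Gli2 and Gli3 it was lower by only 0.10 and 0.050.

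Counted together, 6 of 9 members were highest in sample 2, against 32.5% of all genes above the background level, and 3 of 9 were highest in sample 3, against 32.8%. In sample 1, 5 of 9 were lowest (31.2% of all genes), and in sample 3, 4 of 9 (33.3%). A range above 1 was reached by 3 of 9 members, Gas1, Ptch1 and Boc, and by 5.70% of all genes. With a sample left out, 1 of the 9 members still had a range above 1: Gas1 without sample 1, Ptch1 without sample 2 and Boc without sample 3. The median range of the members was 0.85, and of all genes 0.31. The median deviation of the 9 members from their own means was -0.27, 0.19 and -0.055 in samples 1 to 3, a span of 0.45 that was 0.14 without sample 1 or without sample 2, while over all genes each sample's median lay within 0.0070 of 0. No test between groups was possible, since the labels give 1 group, and no member had equal values on any pair of arrays.

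The marker lists differed between the samples in the same directions as some members. The fibroblast list had median deviations of 0.078, 0.42 and -0.54 in samples 1 to 3, with 11 of 12 genes highest in sample 2 and all 12 lowest in sample 3, and its mean level ran from 9.60 to 10.70. The pericyte list, led by Rgs5 and Acta2, had medians of -0.091, 0.61 and -0.48, with 9 of 10 highest in sample 2. The macrophage list had medians of 0.22, 0.26 and -0.55, with 7 of 8 genes lowest in sample 3, so the low values of sample 3 covered macrophage genes as well. All 6 members other than the targets likewise peaked in sample 2, and Gas1, Gli2, Gli3 and, over a small range, Sufu had their lowest value in sample 3. The cartilage and bone list had medians of -0.45, 0.045 and 0.71, with 7 of 8 genes in the order of the targets, against 16.4% of all such genes. Its first genes, Acan and Col2a1, were at 8.10, 9.07 and 9.94 and at 8.10, 9.11 and 9.66. Of this list 6 of 8 were detected, against 60.5% of all named genes. Bglap, with a range of 0.097, was above the level on 1 array and Matn1 on none. Both are among the 7 in the order of the targets. Neutrophil markers had the same order in 6 of 8, with medians of -0.47, -0.026 and 0.46. The endothelial list was highest in sample 3, at 0.46 against -0.24 and -0.28, the myogenic list spanned 0.35, and the lymphocyte list was highest in sample 1, at 0.89 against -0.94 and 0.062. The part of these lists in the values of the Hedgehog genes was not tested. In such sorted bulk samples, fewer cells of a type and less RNA per cell cannot be told apart.

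**Figure D2:**
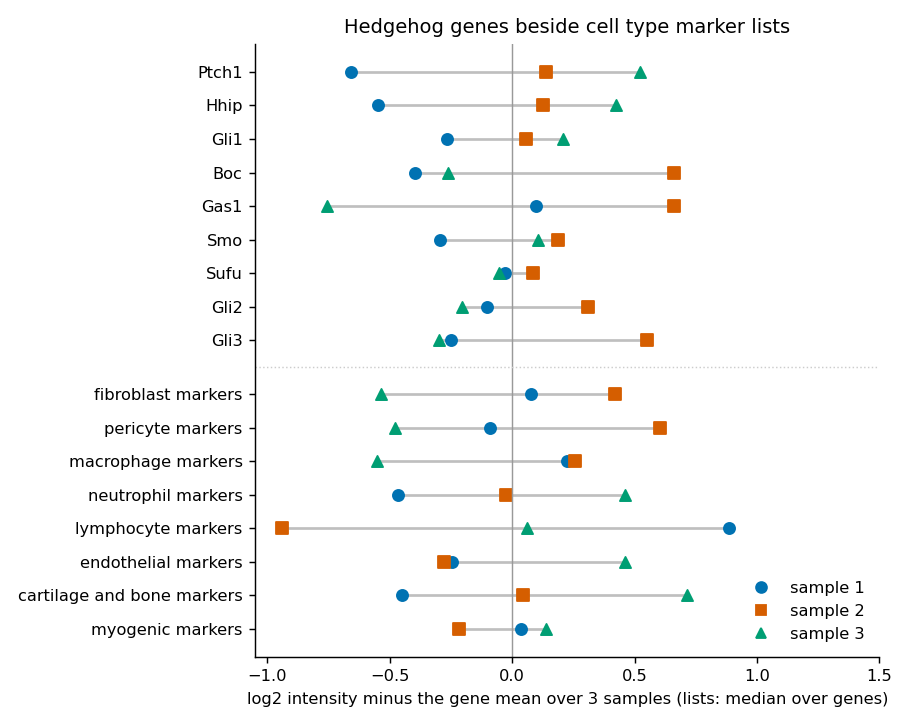
Deviation of each Hedgehog gene from its mean over the 3 samples (upper rows) and median deviation of 8 cell type marker lists (lower rows), in log2 units on the x axis, for samples 1, 2 and 3 (circle, square and triangle). The fibroblast and pericyte medians peaked in sample 2 and had their lowest value in sample 3, as for Gas1, Gli2 and Gli3. The cartilage and bone median ran from -0.45 in sample 1 to 0.71 in sample 3, in the order of the targets. The neutrophil median had that order too, from -0.47 to 0.46.

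Set against the fibroblast markers, by subtracting the median deviation of that list in each sample, the targets spread further apart between samples and Gas1 less. This alternative was chosen after seeing the data. Ptch1 then stood at -0.74, -0.28 and 1.06 in samples 1 to 3, a range of 1.80 or 3.47-fold, in place of 2.27-fold. Hhip stood at -0.63, -0.30 and 0.96, a 3.01-fold range, and Gli1 at -0.34, -0.36 and 0.74, a 2.16-fold range. Sample 3 was highest for all 3 targets, but Gli1 no longer had its lowest value in sample 1. Smo stood at -0.37, -0.23 and 0.64, a range of 1.02. Gas1 stood at 0.019, 0.24 and -0.22, so that its range fell from 1.42 to 0.46, the smallest of the 9 on this scale. Boc had a range of 0.75, Gli3 of 0.56, Gli2 of 0.51 and Sufu, whose own level hardly differed, of 0.82. Of the 9 members 8 were highest in sample 3 on this scale, all but Gas1. The fibroblast list was lowest in that sample, so the subtraction raises every gene there by 0.54 and lowers it in sample 2 by 0.42. A gene level across the samples, as Sufu nearly was, therefore becomes highest in sample 3. A gene already highest there, as the targets were, gets a wider range by the subtraction alone. The range of Gas1, which had the sample order of the list, falls for the same reason. The wider and narrower ranges on this scale are thus no separate result about these genes. The share of all genes highest in sample 3 on this scale was not computed, so the count says little about the members.

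**Figure D3:**
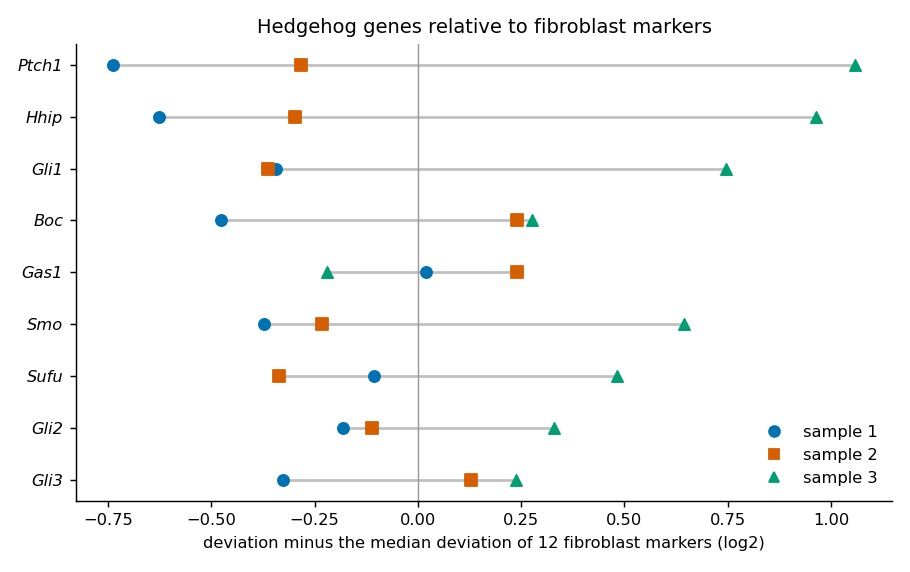
Deviation of each Hedgehog gene minus the median deviation of 12 fibroblast markers in the same sample, in log2 units on the x axis, for samples 1, 2 and 3 (circle, square and triangle). Sample 3 lay highest for 8 of 9 genes, at 1.06 for Ptch1 and 0.96 for Hhip, and Gas1 kept a range of 0.46. The subtraction itself raises every gene in sample 3 by 0.54.

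Other genes of the pathway were taken from lists by role, of which 57 of 61 were measured under a single symbol. Among them 47 were detected on every array, against 60.5% of all named genes. Another 5 passed on some arrays (Dhh, Hhatl, Scube3, Gpr161 and Pax9) and 5 on none (Shh, Disp2, Lrp2, Foxf2 and Mycn). The ligands were below or near the background level. Shh, the ligand of many epithelia, was at 4.28, 4.20 and 4.20 in samples 1 to 3, below the level on all arrays. Ihh, the ligand of growing cartilage, was detected at 6.03 in all samples, with equal values in samples 1 and 2, but on no array with the 99th percentile as the level. Dhh, the ligand of Schwann cells and testis, was at 5.30, 5.35 and 5.03 and passed in samples 1 and 2 only. Values this close to the background level, with a tied pair for Ihh, do not show whether ligand transcripts differed between the samples. Of the 10 genes of ligands and their release 5 were detected (Ihh, Disp1, Hhat, Scube1 and Scube2), against 60.5% of all named genes. None of the 10 had a range above 1.

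Of the other receptors 4 of 5 measured were detected, against 60.5% of all genes. Cdon, the co-receptor related to Boc, was at 8.59, 8.70 and 8.45, with a range of 0.25 against 1.06 for Boc. Lrp2, an endocytic receptor, was at 3.81 on all arrays, below the level. The 4 detected genes, Cdon and the glypicans Gpc3, Gpc4 and Gpc6, all had the sample order of Gas1, with sample 2 at the top and sample 3 at the bottom, an order found in 18.0% of all genes above the background level. Among cilium and trafficking genes 11 of 12 were detected, against 60.5% of all genes, 8 of 12 were highest in sample 2, against 32.5%, and only Rab23, a GTPase that restrains the pathway, had a range above 1. It was at 7.63, 8.02 and 6.82, with its low value in sample 3, as for Gas1. Kif7, the kinesin that organises the tip of the cilium, was at 6.41, 6.65 and 6.26, and Evc, a Smo-binding protein of the cilium, at 6.63, 6.48 and 6.31. All 13 measured kinase and turnover genes were detected, against 60.5% of all genes, and they had the smallest median range of the roles, 0.15. Prkaca and Prkar1a, subunits of the protein kinase A that primes Gli factors for processing, had ranges of 0.55 and 0.061.

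Further genes named as Hedgehog targets in other tissues had the order of Ptch1, Hhip and Gli1 about as often as all genes did. Of 17 such genes 14 were detected, against 60.5% of all genes, and 3 of 17 had this order (Snai1, Hsd11b1 and Foxf2, the last below the level on all arrays), against 16.4%. In sample 2, 10 of 17 were highest, against 32.5%. Both shares are of genes above the background level on at least 1 array, while the 17 include Foxf2 and Mycn, below it on all arrays. Osr1, a zinc finger factor of mesenchymal progenitors, was at 8.87, 9.85 and 7.10, a range of 2.75 or 6.72-fold and the widest of all Hedgehog genes listed. Bmp4, a secreted growth factor, was at 6.97, 7.79 and 6.60, and Sfrp1, a secreted Wnt inhibitor, at 7.81, 7.89 and 6.82. All of Osr1, Bmp4 and Sfrp1 were lowest in sample 3, where Ptch1 was highest, and fibroblast markers were lowest in that sample as well. Foxf1, a forkhead factor of gut and lung mesenchyme, was at 5.80, 6.64 and 6.32, low in sample 1 as the 3 targets were, and Foxf2 was below the level on all arrays. In all, 4 of 57 other pathway genes had a range above 1, Rab23, Osr1, Bmp4 and Sfrp1. These were 4 of the 52 above the background level on at least 1 array, near the 5.70% of all such genes. The median range was 0.36 over the 57 and also over the 52, near the 0.31 of all such genes. With sample 3 left out none of the 57 had such a range, with sample 2 left out 1 did, and with sample 1 left out 4 did.

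**Figure D4:**
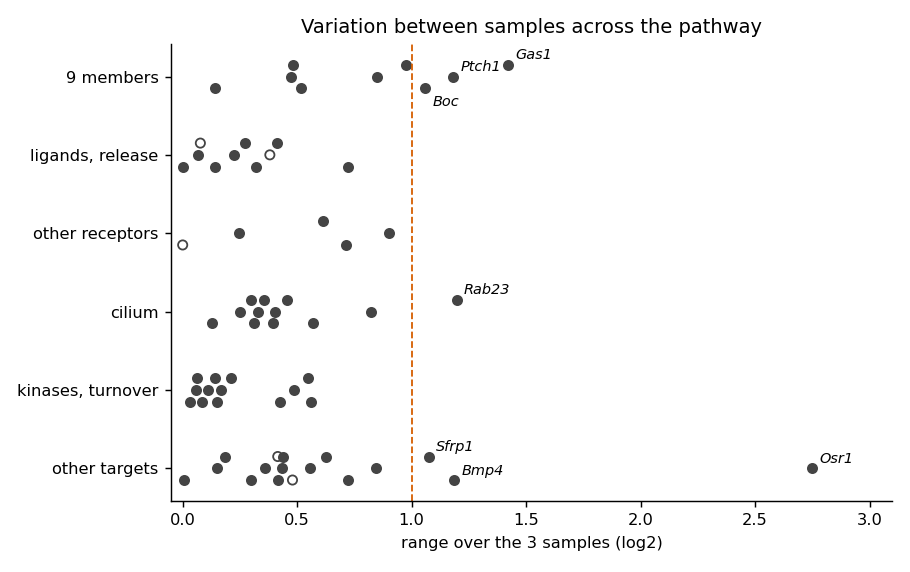
Range over the 3 samples in log2 units (x axis) of the 9 Hedgehog genes and of 57 other pathway genes by role (y axis), 1 point a gene, with vertical scatter for legibility only. Open points lay below the background level on all arrays, the dashed line marks a range of 1, and 3 of 9 members and 4 of the 57 others lay beyond it, the widest being Osr1 at 2.75.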

How the data were processed

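Total RNA of sorted cells was labelled with biotin and read on Affymetrix arrays, 1 array for each of 3 samples of 1 group. The authors deposited a log2 intensity for each probe set on each array. Partek is the tool that the submitters' processing notes name, without version or role; how background, normalization and probe summaries were handled is not given in the sources used here. That the values are on a log2 scale was inferred from their span, 2.00 to 13.18, and the array medians were 5.35, 5.34 and 5.36. In 15.5% of the 31873 probe sets some arrays had exactly equal values, and a tie at the top or bottom counted for no sample.

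Only the 23094 probe sets with 1 gene symbol were used, and a gene took the probe set with the highest mean. All 9 members matched RefSeq (GRCm38.p6) by gene identifier. Ranges, deviations from a gene's mean and counts were computed in Python 3.11.15 (numpy 2.4.6, pandas 2.3.3), with a range above 1 as the size threshold, and the counting was tested on simulated data. No test between groups was run. The members, lists and counts were chosen with earlier results of these data known. Named were all members, the 3 ligands, the first 2 measured genes of each list and each other pathway gene with a range above 1. Others were named after their values were seen. The number of arrays limits the precision.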

Additional observations from a re-analysis of the deposited data

How the results depend on the processing

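With the arrays shifted to equal medians and with quantile normalization, the counts of members detected, of members with a range above 1 and of members highest in each sample were those reported, and the range of a member moved by at most 0.032. The mean of all probe sets of a gene could change no member, since each of the 9 has 1 probe set. The number of members detected was 9 at the 90th percentile, 7 at the 99th and 9 with each sample left out. Other pathway genes detected were 28 at the 99th percentile, from 47. With a range above 0.58 (1.49-fold) as the threshold, 5 members passed in place of 3, and 12 other pathway genes in place of 4. Leaving out each sample gave 1 member with a range above 1 in each case and 0 to 4 other pathway genes. It gave 0 to 4 members highest in sample 1, 6 to 9 in sample 2 and 3 to 5 in sample 3, with 2 samples compared. Relative to the fibroblast list, the order of the targets held in 2 of 3. The span of the members' median deviation of 0.45 was 0.58 with the mean over members, 0.46 and 0.47 under the other normalizations and 0.14 to 0.57 with a sample left out. No paired analysis was possible because the labels give 1 group.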
